A study of Mus musculus with 11 samples.

Results

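The goblet cell secretory programme was described here through 31 genes chosen by name, of 22243 genes in the expression table. Goblet cells are the mucus-secreting cells of the intestinal epithelium, and their Muc2-based gel separates bacteria from the tissue in the colon. Their fate is set by the transcription factor Atoh1, which is expressed where Notch signalling is low, and factors such as Spdef and Foxa3 act in their maturation. A mature goblet cell carries an enlarged folding and transport apparatus and stores mucin granules together with trefoil peptides, lectin-like proteins and antibacterial proteins.

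RNA came from full-thickness distal colon, so muscle and connective tissue were included, of 5 Nrg4-/- mice, called KO here, and 6 wild-type (WT) mice. The product of Nrg4, neuregulin-4, activates the receptor ErbB4. All were 11 to 12 weeks old and had lived together, both genotypes to a cage, since 9 weeks of age. Cage A held 2 KO and 2 WT mice, cage B 2 KO and 2 WT mice, and cage C 1 KO and 2 WT mice, and mice are named by genotype and number. The labels state that both sexes were used, and no source used here gives the strain, the design of the knockout allele or the sex of a given mouse. Nrg4 was listed at 0 TPM in every KO and every WT mouse, so its level did not check the genotype labels.

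Values are TPM (a transcript level scaled for transcript length and library total), summed over the principal transcripts of a gene. Of the 31 genes, 27 reached 1 TPM in at least 5 mice and are described below, 23 of them in all 11 mice. Of the described genes, Retnlb reached it in 8 mice, Itln1 and Slc12a8 in 9 each and Ang4 in 10. Sytl2, which helps dock granules, was not described, as it reached 1 TPM in 3 mice, at 1.39 TPM at most. Gfi1, a transcription factor of the secretory lineage, passed 1 TPM in 2 mice, at 3.07 TPM in KO-1 and 1.84 TPM in WT-10. Fer1l6 stayed between 0.151 and 0.659 TPM, and Bcas1 was listed at 0 in all mice. That listing covers its principal transcript only, and a 0 in such a table can also be a failed estimate.

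Some libraries stood apart. The libraries KO-8 and WT-5, both of cage A, resembled each other more than any other pair of the 55, with a correlation of 0.971 across genes on the log2 scale. Their correlations with the other 9 mice lay between 0.931 and 0.954, and those among the other 9 between 0.940 and 0.967. Among genes chosen after their values were seen, Areg, a ligand of the EGF receptor, had 109.7 TPM in KO-8 and 208 TPM in WT-5, against 9.63 to 27.7 TPM in the other mice. Dbp, a clock output gene, had 1.97 TPM in KO-8 and 1.70 TPM in WT-5, against 19.0 to 66.7 TPM in the other mice. The part of these differences in the results below was not tested. The main results that rest on these libraries are given with and without them, except for the interaction, which was not fitted without them. The share of summed TPM from mitochondrially encoded genes was highest in KO-3, at 42.9%, and lowest in KO-1, at 19.0%. The Y-linked gene Eif2s3y was at 21.5 to 31.8 TPM in each cage A mouse and did not exceed 0.0523 TPM in the other 7, so sex and cage A cannot be told apart.

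The goblet genes spanned a wide range of levels. Mptx1 and Zg16 stood 17th and 18th of all genes by mean TPM, and 6 members were within the top 100. By mean level, 6 members exceeded 1000 TPM, 4 lay between 100 and 1000 TPM, 10 between 10 and 100 TPM and 7 under 10 TPM. The 5 most abundant made up 81.3% of the members' summed TPM. Together the members took 1.44% to 3.19% of the summed TPM in KO mice, with a median of 2.48%, and 1.88% to 2.61% in WT mice, with a median of 2.40%. In bulk tissue, fewer goblet cells and less RNA per goblet cell cannot be told apart.

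**Figure D1:**
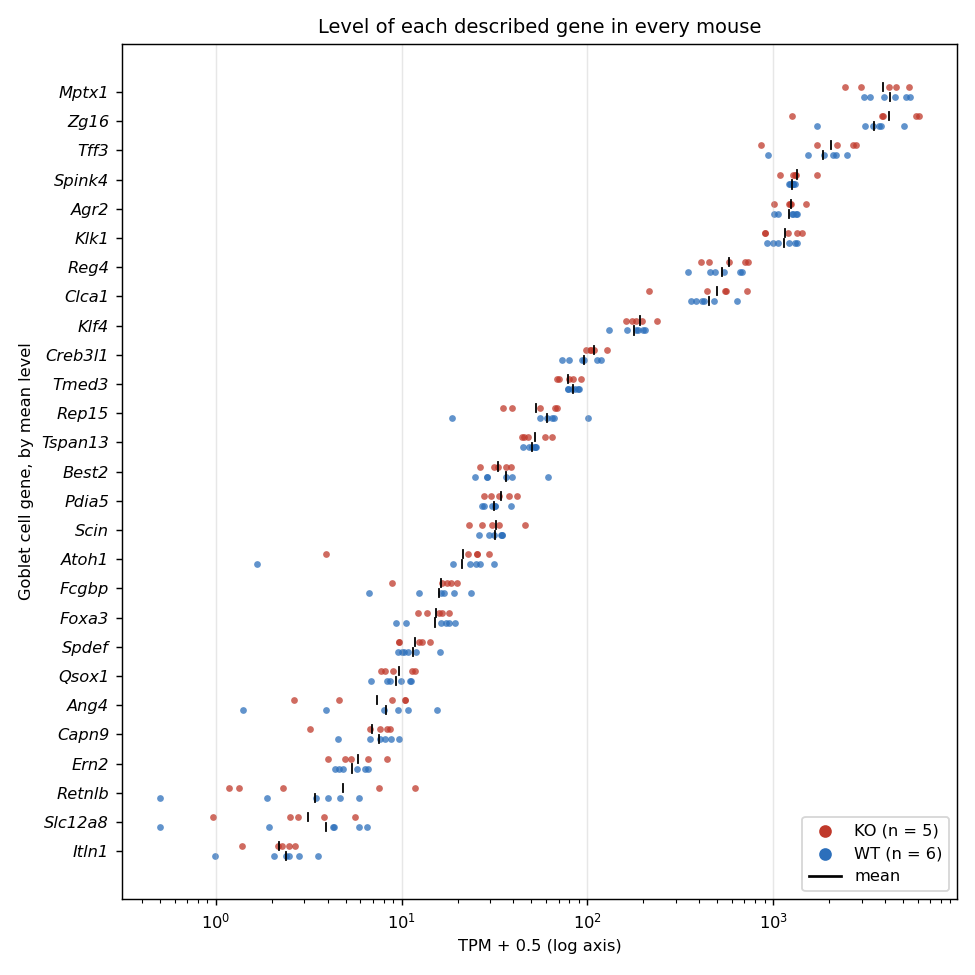
TPM of each of the 27 described goblet genes in every mouse, plotted as TPM + 0.5 on a log axis and ordered by mean level, with KO mice above WT mice and a bar for the mean. Levels run from a mean of 4098 TPM for Mptx1 to 1.80 TPM for Itln1, and the KO and WT points overlap in every gene.

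Promoters of 5 members are shown because these genes cover the patterns described below: the most abundant member, the lectin Reg4, the steadily expressed Agr2, and the factors Foxa3 and Atoh1. They are RefSeq sequences of GRCm38.p6, from 250 bases before to 50 bases after the annotated start, written 5′ to 3′ on the gene's strand, with capitals for a motif match. Mptx1 lies at chr1:174330268-174330567 (plus strand), Reg4 at chr3:98221906-98222205 (plus strand), Agr2 at chr12:35992675-35992974 (plus strand), Foxa3 at chr7:19023490-19023789 (minus strand) and Atoh1 at chr6:64728875-64729174 (plus strand).
Mptx1: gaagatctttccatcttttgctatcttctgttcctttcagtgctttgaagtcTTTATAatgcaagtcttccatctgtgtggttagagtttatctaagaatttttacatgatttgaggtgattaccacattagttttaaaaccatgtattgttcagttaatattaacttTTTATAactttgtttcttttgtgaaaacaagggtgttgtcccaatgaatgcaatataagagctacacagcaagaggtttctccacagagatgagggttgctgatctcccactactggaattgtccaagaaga
Reg4: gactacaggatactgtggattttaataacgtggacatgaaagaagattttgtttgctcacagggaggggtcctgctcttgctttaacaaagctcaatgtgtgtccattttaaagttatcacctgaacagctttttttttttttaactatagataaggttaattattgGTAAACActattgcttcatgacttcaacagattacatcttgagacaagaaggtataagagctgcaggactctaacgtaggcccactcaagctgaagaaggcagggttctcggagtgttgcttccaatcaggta
Agr2: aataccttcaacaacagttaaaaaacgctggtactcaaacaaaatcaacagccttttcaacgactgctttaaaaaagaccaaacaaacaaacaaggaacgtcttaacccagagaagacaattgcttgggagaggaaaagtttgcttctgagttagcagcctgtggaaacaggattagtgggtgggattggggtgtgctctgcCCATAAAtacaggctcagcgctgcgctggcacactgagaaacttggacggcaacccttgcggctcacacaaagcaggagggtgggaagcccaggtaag
Foxa3: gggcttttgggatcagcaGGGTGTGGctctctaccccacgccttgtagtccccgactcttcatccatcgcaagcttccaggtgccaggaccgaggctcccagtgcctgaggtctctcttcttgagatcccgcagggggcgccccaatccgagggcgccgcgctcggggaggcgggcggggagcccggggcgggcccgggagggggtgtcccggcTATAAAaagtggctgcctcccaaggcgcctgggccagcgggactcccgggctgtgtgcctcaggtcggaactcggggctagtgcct
Atoh1: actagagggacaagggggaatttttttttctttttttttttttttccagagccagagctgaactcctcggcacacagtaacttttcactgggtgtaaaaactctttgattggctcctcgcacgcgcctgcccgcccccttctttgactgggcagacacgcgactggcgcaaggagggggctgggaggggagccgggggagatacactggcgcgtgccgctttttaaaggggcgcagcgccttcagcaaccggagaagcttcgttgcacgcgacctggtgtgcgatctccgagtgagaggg

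Both strands were searched for 6 motifs, and no matches overlapped in these promoters. A promoter was found for 19 of the 31 members, 22 promoters in all because some genes have several starts. The letters TATAAA, as in a TATA box, occurred in Foxa3 on the gene's strand, 36 bases before the start. In Mptx1 they occurred on the opposite strand, printed as TTTATA, starting 198 and 82 bases before the start. Of all 32851 promoters of this length, 13.6% hold them on either strand. TGTTTAC, a FOXA-type sequence, occurred in Reg4 on the opposite strand 83 bases before the start, against 3.65% of all promoters. CCATAAA, a CDX-type sequence, occurred in Agr2 48 bases before the start, and also in Itln1 and Slc12a8, against 2.75% of all promoters. CCACACCC, a KLF-type sequence, occurred on the opposite strand in Foxa3 232 bases before the start and in Fcgbp, against 3.56%. The E-box CAGCTG, of the kind that Atoh1 can bind, occurred in 4 of the 22 promoters (Fcgbp, Klf4, Pdia5 and Slc12a8), against 16.3% of all promoters. The ETS-type sequence CCGGAT occurred in Capn9 on the opposite strand, against 6.04%. No motif matched in the Atoh1 window. These matches describe letters and are not evidence of binding.

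The comparison of KO with WT asked whether loss of neuregulin-4 changed these genes. No goblet gene passed the test between KO and WT colon. With limma on log2(TPM + 0.5) and cage as a term, 0 of 27 members passed an FDR (false discovery rate) of 0.05, with every adjusted p at 1.00, where 4 of 10756 genes passed, a share of 0.0372%. At an unadjusted p below 0.05, 0 of 27 members were called, against 3.10% of all genes. The fit gave 17 members a higher and 10 a lower value in KO, against 46.8% of all genes higher, and the members' median log2 difference was 0.04, against -0.01 over all genes. No member had all KO mice above or all KO mice below every WT mouse, which 0.112% of genes did in each direction. For 23 of the 27, the 95% interval of the difference lay within 1 log2 unit of 0. The exceptions were Atoh1, Ang4, Retnlb and Slc12a8. Without KO-8 and WT-5, 0 of 27 passed the FDR, against 0.0190% of all genes. In that fit, 0 of 27 had an unadjusted p below 0.05, against 7.22% of all genes. The members were then 13 higher and 14 lower in KO, with a median of -0.03.

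**Figure D2:**
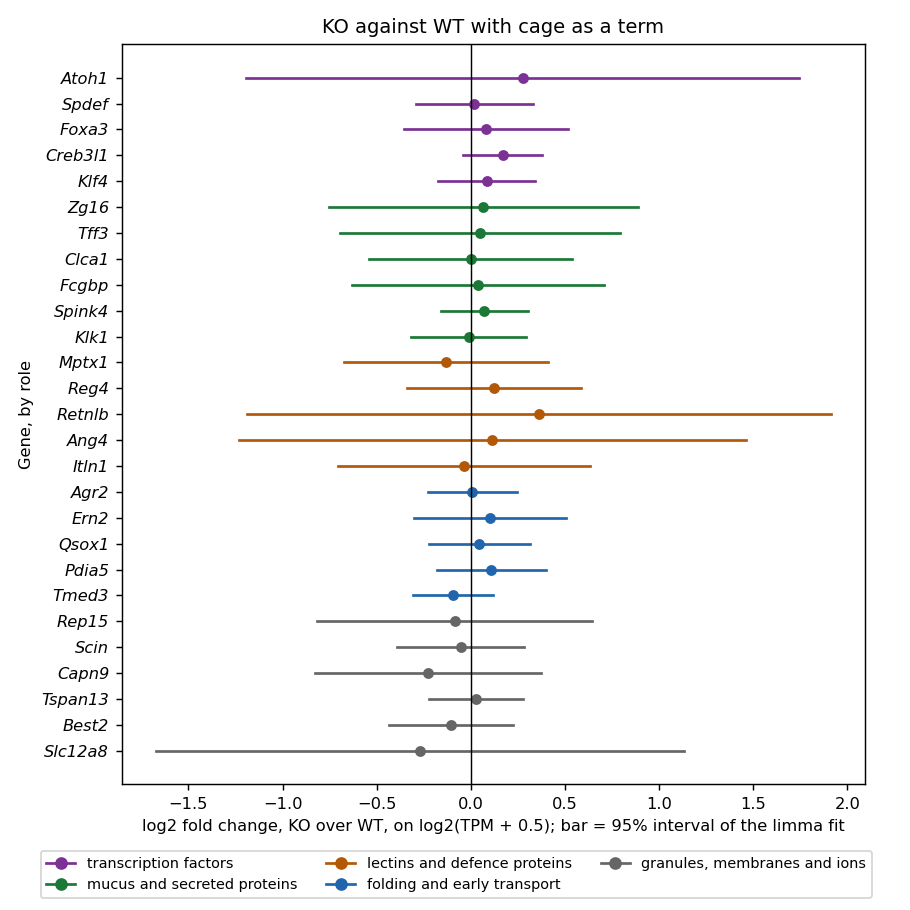
Log2 fold change of KO over WT on the log2(TPM + 0.5) scale for the 27 goblet genes, with cage as a term, as points with 95% intervals from limma, coloured by role. All intervals cross 0, and those of Atoh1, Ang4, Retnlb and Slc12a8 reach beyond 1 log2 unit.

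The transcription factors came first in the order of the lineage. Atoh1 (ENSMUSG00000073043, chromosome 6, 64729125 to 64731245) had 24.9, 3.40, 25.1, 22.4 and 29.1 TPM in KO-1, KO-8, KO-4, KO-9 and KO-3, against a lowest value of 1.16, a median of 23.7 and a highest of 30.8 TPM in WT mice. KO-8 and WT-5 were low in both genotypes, and the groups otherwise overlapped. Its log2 difference was 0.27 ± 0.66 (KO over WT, SE of the limma fit), with a 95% interval from -1.20 to 1.74. Spdef, which promotes goblet maturation, averaged 11.3 ± 2.04 TPM in KO mice (SD, n = 5) and 11.0 ± 2.45 TPM in WT mice (SD, n = 6), a log2 difference of 0.02 ± 0.14. Foxa3 averaged 14.8 ± 2.26 TPM in KO mice and 14.7 ± 4.16 TPM in WT mice, a log2 difference of 0.08 ± 0.20. Klf4, a zinc finger factor of mature epithelial cells, was more abundant, with 190.4 ± 29.4 TPM in KO mice and 178 ± 27.6 TPM in WT mice.

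Creb3l1, a membrane-bound factor of the secretory apparatus, had the smallest p of all members. Creb3l1 (ENSMUSG00000027230, chromosome 2, 91982328 to 92024502) had 107.5, 127, 104.5, 103 and 98.2 TPM in KO-1, KO-8, KO-4, KO-9 and KO-3, against 72.9, 94.2 and 118 TPM as lowest, median and highest of the WT mice. KO-8 was above every WT mouse and the other KO mice were inside the WT range, while 2 of the WT mice, WT-5 and WT-7, were above 4 of the KO mice. The log2 difference was 0.17 ± 0.09, with a 95% interval from -0.04 to 0.38, an unadjusted p of 0.103 and an adjusted p of 1.00 (limma). In the authors' deposited table, p for Creb3l1 was 0.102 and q was 1. That table gives p for 31 transcripts of 29 members, of which 0 were below 0.05 and every q was 1.

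Among mucus and secreted proteins, the spread within a genotype was wide for some genes and narrow for others. Zg16 (ENSMUSG00000049350, chromosome 7, 127050156 to 127087328), a lectin-like mucus protein that binds Gram-positive bacteria, had 3905, 6131, 3874, 5856 and 1262 TPM in KO-1, KO-8, KO-4, KO-9 and KO-3, against 1723, 3589 and 5046 TPM as lowest, median and highest in WT mice. KO mice held both the 2 highest values and the lowest value of all 11. The log2 difference was 0.06 ± 0.37, with a 95% interval from -0.76 to 0.89. Zg16 was a sum of a pair of principal transcripts, of which the minor one averaged 76.4 TPM and the main one 3731 TPM. Tff3, the trefoil peptide of goblet cells, had 2209, 2683, 1729, 2789 and 864.9 TPM in KO-1, KO-8, KO-4, KO-9 and KO-3, against 936.7, 1997 and 2494 TPM as lowest, median and highest in WT mice. KO-3 and WT-5 were the lowest mice for both Zg16 and Tff3.

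Clca1, a mucus-processing metalloprotease, had 439, 553, 559, 725 and 214 TPM in KO-1, KO-8, KO-4, KO-9 and KO-3, against 361, 419.6 and 636 TPM as lowest, median and highest in WT mice. It was again lowest in KO-3, and its log2 difference was -0.00 ± 0.24. Spink4, a Kazal-type protease inhibitor, was steadier, at 1348 ± 229 TPM in KO mice and 1267 ± 36.0 TPM in WT mice, a log2 difference of 0.07 ± 0.10. Klk1, a tissue kallikrein of a family of similar genes, averaged 1157 ± 244 TPM in KO mice and 1140 ± 174 TPM in WT mice. Fcgbp, a large mucus protein that crosslinks to Muc2, averaged 15.7 ± 4.32 TPM in KO mice and 15.3 ± 5.79 TPM in WT mice. The last value covers its principal transcript only. In this role 4 of the 6 genes were fitted higher and 2 lower in KO, none past the test. Without KO-8 and WT-5 this turned to 2 higher and 4 lower.

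Lectins and defence proteins varied more between mice than most genes. Mptx1 (ENSMUSG00000026531, chromosome 1, 174330518 to 174332873), a pentraxin, had 2430, 5378, 4595, 2965 and 4209 TPM in KO-1, KO-8, KO-4, KO-9 and KO-3, against 3092, 4231 and 5425 TPM as lowest, median and highest in WT mice. The groups overlapped over nearly their whole range, and the log2 difference was -0.13 ± 0.24. Reg4, a C-type lectin, averaged 575 ± 145 TPM in KO mice and 528 ± 126 TPM in WT mice, a log2 difference of 0.12 ± 0.21. Retnlb, a bactericidal resistin-like protein, had 0.674, 1.80, 7.08, 0.841 and 11.3 TPM in KO-1, KO-8, KO-4, KO-9 and KO-3, against 0, 3.25 and 5.38 TPM as lowest, median and highest in WT mice. The 2 highest mice were KO and the lowest was WT, with the other values mixed. Ang4, an antimicrobial ribonuclease with close paralogs, had 2.13, 9.90, 8.40, 4.09 and 9.87 TPM in KO-1, KO-8, KO-4, KO-9 and KO-3, against 0.898, 8.29 and 15.0 TPM as lowest, median and highest in WT mice. Itln1, intelectin, averaged 1.70 ± 0.495 TPM in KO mice and 1.88 ± 0.847 TPM in WT mice. Paralogs of Mptx1, Ang4, Klk1 and Clca1 can share reads, so their split between copies is uncertain.

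The folding and early transport genes had coefficients of variation of 9.40% to 24.8% over all mice, with the lowest upper end of the 5 roles. Agr2, a disulphide isomerase needed for Muc2 folding, had 1221, 1497, 1231, 1247 and 1013 TPM in KO-1, KO-8, KO-4, KO-9 and KO-3, against 1009, 1266 and 1344 TPM as lowest, median and highest in WT mice. Its log2 difference was 0.01 ± 0.11, with a 95% interval from -0.23 to 0.25. Ern2, an endoplasmic reticulum stress sensor of mucous cells, averaged 5.33 ± 1.67 TPM in KO mice and 4.93 ± 0.954 TPM in WT mice. Qsox1, a sulphhydryl oxidase, averaged 9.14 ± 1.90 TPM in KO mice and 8.83 ± 1.73 TPM in WT mice. Pdia5, a further disulphide isomerase, averaged 33.7 ± 5.67 TPM in KO mice and 30.9 ± 4.16 TPM in WT mice. Tmed3, a cargo adaptor of early transport vesicles, had the lowest coefficient of variation of all members, 9.40%, and averaged 78.6 ± 9.89 TPM in KO mice and 83.5 ± 5.03 TPM in WT mice.

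Of the genes of granules, membranes and ions, 1 was fitted higher and 5 lower in KO, none past the test. Rep15, a Rab15-binding protein, had 66.2, 34.6, 54.8, 68.2 and 38.7 TPM in KO-1, KO-8, KO-4, KO-9 and KO-3, against 18.1, 61.8 and 99.9 TPM as lowest, median and highest in WT mice. Its 2 lowest values were those of WT-5 and KO-8. Capn9, a calpain protease of the digestive tract, averaged 6.42 ± 2.20 TPM in KO mice and 7.09 ± 1.79 TPM in WT mice, a log2 difference of -0.23 ± 0.27. Best2, a bicarbonate-conducting channel of colonic goblet cells, averaged 32.7 ± 4.90 TPM in KO mice and 36.1 ± 13.3 TPM in WT mice. It was a sum of 3 principal transcripts, of which the most abundant ran from 9.44e-09 TPM in WT-10 to 36.3 TPM in WT-2. Scin, an actin-severing protein, and the tetraspanin Tspan13 had log2 differences of -0.05 ± 0.15 and 0.03 ± 0.11. Slc12a8, a solute carrier, varied from 0.465 to 5.13 TPM in KO mice and from 0.000102 to 6.05 TPM in WT mice, a log2 difference of -0.27 ± 0.63. Its value rested on single mice: it was -1.20 without KO-3 (limma, unadjusted p = 0.0262, adjusted p = 1.00) and 0.11 without KO-4.

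Each member's variation over all 11 mice was set beside that of all genes tested. The coefficient of variation of TPM had a median of 24.8% over the members, with a highest value of 94.4% for Retnlb, and a median of 20.3% over all genes. High and low mice were not the same for each role. KO-8 was the highest mouse for 9 members. KO-3 was the lowest for Zg16, Tff3, Clca1, Capn9 and Scin. WT-7 was the lowest mouse for Reg4, Retnlb, Ang4 and Itln1, while KO-1 was next lowest for each of these and the lowest for Mptx1.

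**Figure D3:**
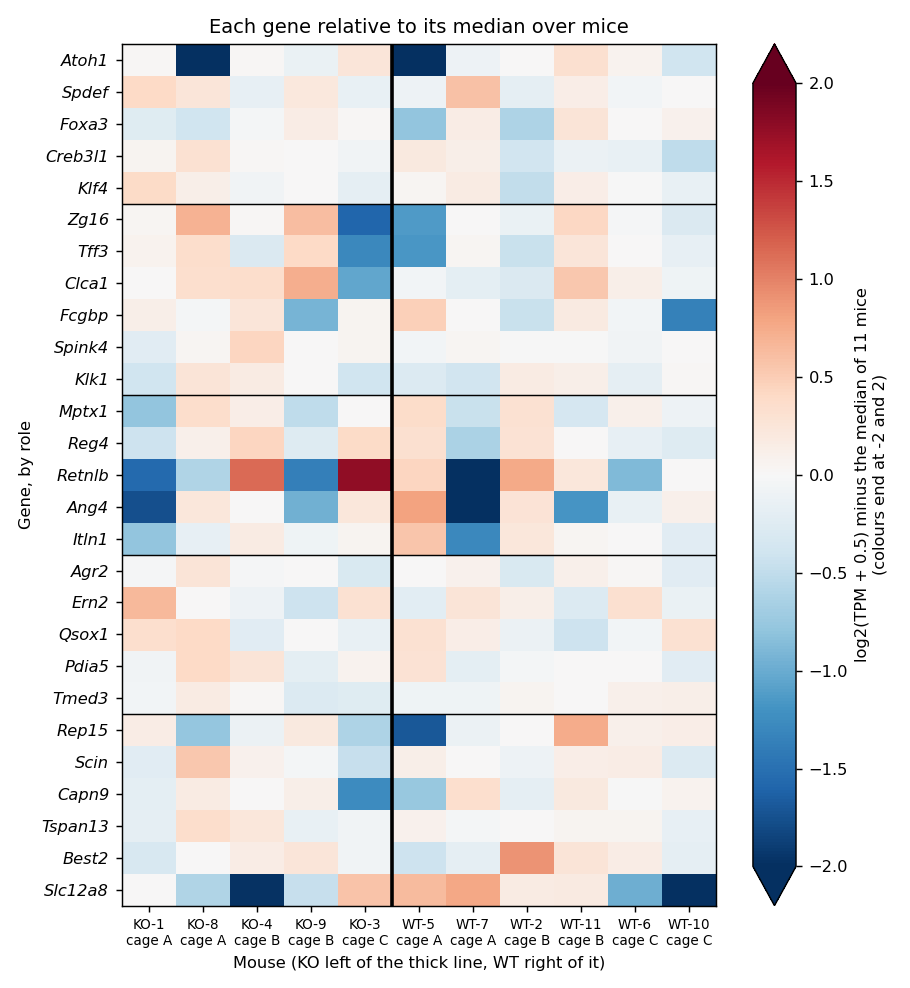
Log2(TPM + 0.5) of each goblet gene in each mouse relative to the gene's median over the 11 mice, with colours ending at -2 and 2, with genes in rows by role and mice in columns, KO left of WT. Atoh1 and Rep15 are low in KO-8 and WT-5, Zg16 and Tff3 are low in KO-3 and WT-5, and the lectin and defence genes are low in KO-1 and WT-7.

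Ratios within a library do not depend on how much of it other transcripts took. Zg16 over Spink4 was 3.59, 4.66, 2.25, 4.57 and 0.947 in KO-1, KO-8, KO-4, KO-9 and KO-3, against 1.39 in WT-5 and 2.43 to 3.95 in the other WT mice. Zg16 was therefore also low relative to another abundant goblet transcript in KO-3 and WT-5. Mptx1 over Spink4 was 2.23, 4.09, 2.67, 2.31 and 3.16 in the same KO mice, against 4.39 in WT-5 and 2.35 to 4.09 in the other WT mice. Mptx1 over Zg16 ranged from 0.506 in KO-9 to 3.33 in KO-3, with 3.15 in WT-5.

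**Figure D4:**
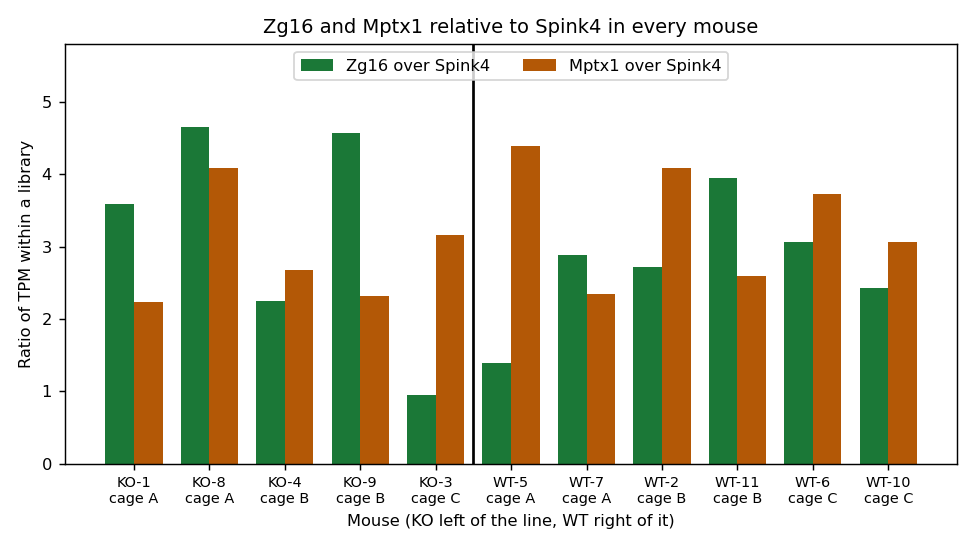
TPM of Zg16 and of Mptx1 divided by the TPM of Spink4 in the same library, for each mouse, with KO mice left and WT mice right of the line. The ratio of Zg16 is lowest in KO-3 (0.947) and WT-5 (1.39), while that of Mptx1 is 3.16 and 4.39 in those mice.

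Cage was the other label of the design. The limma F test on cage called 0 of 27 members at an FDR of 0.05, where 0.00% of all genes were called, and the smallest adjusted p of a member was 0.343. At an unadjusted p below 0.05 it called 3 of 27, against 12.1% of all genes. They were Best2 (adjusted p = 0.343, limma), Qsox1 (adjusted p = 0.357, limma) and Creb3l1 (adjusted p = 0.357, limma).

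Mice of cage A were then set against those of cages B and C, a contrast in which cage A and sex cannot be told apart. At an FDR of 0.05, 0 of 27 members passed (limma), against 0.0465% of all genes. At an unadjusted p below 0.05, 5 of 27 passed, against 17.4% of all genes, so the members' share was near the background. Creb3l1 averaged 116 ± 8.65 TPM over the 4 cage A mice and 92.4 ± 12.0 TPM over the 7 others (SD). All 4 mice of cage A exceeded every mouse of cages B and C for Creb3l1, the only member to do so, against 2.38% of all genes, and no member had all of cage A below, against 1.66%. Its log2 difference was 0.33 ± 0.10, with an unadjusted p of 0.00676 and an adjusted p of 0.168 (limma). Qsox1 averaged 10.6 ± 0.853 TPM in cage A and 8.06 ± 1.37 TPM in cages B and C, with an adjusted p of 0.200 (limma). Klf4 averaged 207 ± 21.6 TPM in cage A and 170.3 ± 22.0 TPM in cages B and C, with an adjusted p of 0.264 (limma). Best2 averaged 27.7 ± 3.60 TPM in cage A and 38.5 ± 10.7 TPM in cages B and C, with an adjusted p of 0.236 (limma). Its mean was 43.5 ± 11.7 TPM in cage B, where WT-2 had 61.1 TPM, and 31.7 ± 3.86 TPM in cage C. Cage C overlapped cage A for this gene. All 5 folding and early transport genes were fitted higher in cage A and all 5 lectin and defence genes lower, without passing the adjusted threshold. Over all roles 16 members were fitted higher and 11 lower in cage A, against 53.6% of all genes higher. Without KO-8 and WT-5 the members were 12 higher and 15 lower, with a median log2 difference of -0.03 against 0.06 with them, and the folding and early transport genes were 3 higher and 2 lower. Of the single genes, Creb3l1 then had a log2 difference of 0.25 ± 0.13 (limma, unadjusted p = 0.0841, adjusted p = 0.551), Qsox1 one of 0.31 ± 0.17 (unadjusted p = 0.107, adjusted p = 0.573) and Best2 one of -0.41 ± 0.18 (unadjusted p = 0.0519, adjusted p = 0.526). These 3 were thus no longer below an unadjusted p of 0.05, while Klf4, at 0.38 ± 0.16, remained below it (limma, unadjusted p = 0.0435, adjusted p = 0.513). Spdef, at 0.54 ± 0.14, was below it in that fit (limma, unadjusted p = 0.00570, adjusted p = 0.414) but not with all mice. Klk1, at -0.34 ± 0.11, did likewise (limma, unadjusted p = 0.0133, adjusted p = 0.436).

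Atoh1 was the largest of these differences, and it rested on the libraries KO-8 and WT-5. It averaged 13.1 ± 12.5 TPM in cage A and 25.2 ± 4.10 TPM in cages B and C, a log2 difference of -1.71 ± 0.68 with an adjusted p of 0.248 (limma). Within cage A, it had 3.40 TPM in KO-8 and 1.16 TPM in WT-5 but 24.9 TPM in KO-1 and 22.9 TPM in WT-7. Without KO-8 and WT-5 the log2 difference was -0.06, with an unadjusted p of 0.761 (limma). Spdef did not share this low value: it had 12.3 TPM in KO-8 and 9.53 TPM in WT-5, inside the range of 9.03 to 15.7 TPM in the other mice. Atoh1 over Spdef was 0.276 in KO-8 and 0.122 in WT-5, against 1.46 to 3.17 in the others. Rep15 had 34.6 TPM in KO-8 and 18.1 TPM in WT-5, also below every other mouse. Creb3l1, Mptx1 and Pdia5 were above every other mouse in both. The members thus gave 2 of 27 below and 3 of 27 above, against 8.85% and 10.4% of all genes.

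**Figure D5:**
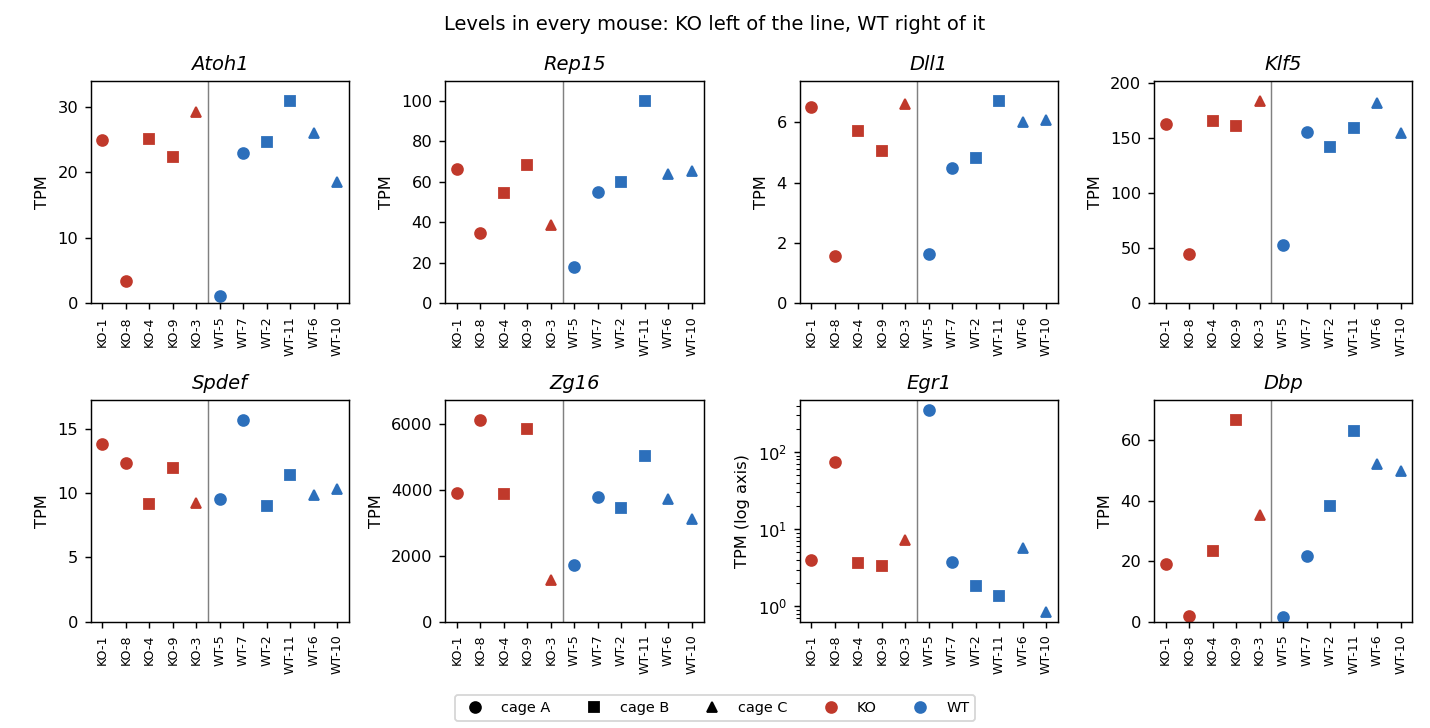
TPM in each mouse of Atoh1, Rep15, Dll1, Klf5, Spdef, Zg16, Egr1 and Dbp, 1 panel each (Egr1 on a log axis), with KO mice left of WT mice and marker shapes for cages. Atoh1 is at 3.40 TPM in KO-8 and 1.16 TPM in WT-5 and at 18.5 TPM or more in the other 9 mice.

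Of the genes on the fate and Notch list, some were also low in those libraries and Hes1 was not. Dll1, a Notch ligand of secretory progenitors, had 1.56 TPM in KO-8 and 1.65 TPM in WT-5, against 4.49 to 6.70 TPM in the other mice. Klf5, a factor of crypt progenitors, had 44.7 TPM in KO-8 and 53.1 TPM in WT-5, against 142 to 184 TPM in the others. Hes1, a target of Notch signalling, had 60.8 TPM in KO-8 and 42.1 TPM in WT-5, inside the 33.5 to 74.8 TPM of the others. Hspa5, the main chaperone of the endoplasmic reticulum, went the other way, with 238 TPM in KO-8 and 254 TPM in WT-5 and 107 to 189 TPM in the others. Epithelial markers did not fall with Atoh1: their geometric mean was 423 TPM in KO-8 and 395 TPM in WT-5, within or above the 301 to 403 TPM of the other mice.

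The lectin and defence genes showed the opposite split of cage A. With KO-8 and WT-5 left out, cage A was represented by KO-1 and WT-7 alone. Of the 27 members, 8 then had an unadjusted p below 0.05, against 9.58% of all genes. All 5 lectin and defence genes were among them and lower in cage A, against 5.29% of all genes lower. The smallest adjusted p was 0.327 (limma), so none passed the FDR. This was not particular to these genes. At the same unadjusted threshold, 6 of 10 enteroendocrine markers were lower and 1 higher, and 4 of 9 absorptive colonocyte markers were lower and 0 higher. Of 5 immune markers, 3 were higher and 1 lower. Mptx1 still overlapped, with 3092 TPM in WT-7 and 2965 TPM in KO-9 of cage B. Itln1 had 0.888 TPM in KO-1 and 0.486 TPM in WT-7, against 1.56 to 2.30 TPM in cages B and C, a log2 difference of -1.06 ± 0.20. Ang4 had 2.13 TPM in KO-1 and 0.898 TPM in WT-7, against 3.44 to 10.3 TPM in cages B and C, a log2 difference of -2.03 ± 0.41. Retnlb had 0.674 TPM in KO-1 and was listed at 0 in WT-7, against 0.841 to 11.3 TPM in cages B and C. With KO-8 and WT-5 kept, the same differences were smaller in size, -1.40 ± 0.72 for Retnlb, -0.66 ± 0.62 for Ang4 and -0.43 ± 0.31 for Itln1. Those of Reg4 and Mptx1 were then -0.22 ± 0.21 and -0.07 ± 0.25. Cage A overlapped the other cages for each of these genes. In KO-8 and WT-5 themselves, Ang4 had 9.90 TPM in KO-8 and 15.0 TPM in WT-5, and Itln1 had 1.65 TPM in KO-8 and 3.04 TPM in WT-5. Retnlb had 1.80 TPM in KO-8 and 4.18 TPM in WT-5. For Ang4, Itln1 and Retnlb, KO-8 was thus inside the range of cages B and C. WT-5 was above that range for Ang4 and Itln1 and inside it for Retnlb.

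Whether the genotype difference itself depended on cage was tested with a limma F test on the interaction. At an FDR of 0.05, 0 of 27 members passed, against 0.0186% of all genes, and at an unadjusted p below 0.05, 5 of 27 passed, against 3.97% of all genes. For Zg16 the log2 differences of KO over WT were 0.94, 0.19 and -1.43 in cages A, B and C (limma, adjusted p = 1.00). Those of Tff3 were 0.77, 0.16 and -1.20, those of Clca1 0.29, 0.41 and -1.05 and those of Capn9 0.21, 0.05 and -1.30. Slc12a8 ran the other way, at -1.01, -1.39 and 2.51. The unadjusted p of these 5 lay between 0.0131 for Slc12a8 and 0.0494 for Capn9, with an adjusted p of 1.00 for each (limma). The only KO mouse of cage C was KO-3, the mouse with the highest mitochondrial share. In cage A, the differences of Zg16 and Tff3 rested on KO-8 and WT-5. Zg16 had 6131 TPM in KO-8 and 1723 TPM in WT-5, but 3905 TPM in KO-1 and 3797 TPM in WT-7. Tff3 had 2683 TPM in KO-8 and 937 TPM in WT-5, but 2209 TPM in KO-1 and 2170 TPM in WT-7. The interaction was not fitted without KO-8 and WT-5. With mitochondrially encoded genes removed and the rest rescaled, the values of Zg16 were 0.89, 0.20 and -1.27. With cages A and B alone, 0 of 27 members had an unadjusted p below 0.05 (limma). The share over all genes was not computed for that fit, so its count is not set against a background.

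The other genes of the lineage and of the secretory route were taken from lists. Muc2, the gel-forming mucin of goblet cells, averaged 171 ± 46.0 TPM in KO mice and 168 ± 28.7 TPM in WT mice, and KO-3 was the lowest with 99.7 TPM. Of 15 other goblet genes, 14 were tested, of which 6 were fitted higher and 8 lower in KO and none passed the FDR (limma). Galnt12, which starts mucin O-glycans, had the smallest p of them, with a log2 difference of -0.53 ± 0.19 (limma, unadjusted p = 0.0177). All 23 genes of the secretory route were tested, and 14 were higher and 9 lower, none at an unadjusted p below 0.05. The 13 tested genes of secretory fate and Notch, of 17, gave 8 higher and 5 lower. The 6 tested of 11 inputs from type 2 cytokines and interleukin-22 gave 3 higher and 3 lower. Without KO-8 and WT-5, the other goblet genes were 3 higher and 11 lower and the secretory route genes 10 higher and 13 lower. In each of these lists 2 genes then had an unadjusted p below 0.05 (limma), against 7.22% of all genes. The fate and Notch genes were then 10 higher and 3 lower. Il13, Il4, Il25 and Tslp stayed below 1 TPM in every mouse.

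In the contrast of cage A, 17 of the 23 secretory route genes were fitted higher and 6 lower, with a median log2 difference of 0.17 against 0.03 over all genes, and 6 were higher at an unadjusted p below 0.05, against 9.83% of all genes. Hspa5 led these, at 0.58 ± 0.15 with an adjusted p of 0.157 (limma). Of the 13 fate and Notch genes, 3 were higher and 10 lower, and 3 were lower at an unadjusted p below 0.05, against 7.61% of all genes. Without KO-8 and WT-5, 0 of the 23 and 0 of the 13 had an unadjusted p below 0.05, while the secretory route genes were still 17 higher and 6 lower, with a median of 0.08, and the fate and Notch genes 4 higher and 9 lower. Markers of other tissue parts were examined beside the genotype comparison. All 7 smooth muscle markers and 6 of 7 fibroblast markers were fitted higher in KO, 5 of 10 epithelial markers were higher and 5 lower, against 46.8% of all genes higher, and none passed the FDR (limma). The median log2 difference was 0.07 for smooth muscle and 0.13 for fibroblast markers. It was larger for the 3 tested tuft cell markers, all higher, at 0.48, and for the 5 tested endothelial markers, 4 higher, at 0.42. Rgs13 and Avil of the tuft list and Emcn of the endothelial list had an unadjusted p below 0.05, with an adjusted p of 1.00 each (limma). The part of these markers in the goblet results was not tested. Without KO-8 and WT-5 no list of the secretory route or of other goblet genes held a gene past the FDR. Of 9 squamous markers, 7 were below 1 TPM in every mouse, among them Krt5, Krt14 and Trp63. The remaining squamous markers were not: Sprr2a2 averaged 19391 TPM in KO mice and 19948 TPM in WT mice, and Anxa8 65.0 and 102 TPM. Of 7 markers of salivary and pancreatic glands, 6 were below 1 TPM in every mouse. The remaining gland marker, Cela1, averaged 391 TPM in KO mice and 471 TPM in WT mice.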

How the data were processed

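RNA of 11 mice (5 KO, 6 WT) was read as single-end reads of 75 nt from stranded mRNA libraries, per the labels' protocols. The tools named are kallisto, sleuth and CASAVA with mm10, per the submitters' processing notes, in versions that no source used here gives. Per the file headers, the deposited table gives TPM per principal transcript, and the authors' own p-value and q-value for KO against WT. TPM keeps no depth, so reads per library are unknown and no counting interval is given. The summed TPM of a mouse was 558446 to 770986, below 1000000, since other transcripts are not in the table.

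Of 29213 rows, 405 repeats were dropped, and the 28808 transcripts were summed to 22243 genes. Coordinates are from GENCODE M21 (GRCm38, mm10), which held 22241 of the gene identifiers. The 10756 genes that reached 1 TPM in 5 or more mice were tested with limma 3.58.1 (R 4.3.3, trended eBayes) on log2(TPM + 0.5). Cage and genotype were terms, with Benjamini-Hochberg adjustment over all genes tested. Fold changes on this scale understate the change of low genes. ± is the SD beside a mean and the standard error beside a log2 difference. Each replicate is a mouse. The scripts were tested on simulated data.

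The members and lists were chosen with earlier results of these data known. All members are accounted for, and of each other list the 2 tested genes with the smallest p in the genotype or cage A comparison could be named. Muc2, Areg, Egr1, Dbp and Eif2s3y were named after their values were seen. Alternatives were the pseudocount, the filter, scaling, removal of mitochondrial genes, the model terms and the mice left out. Leaving out KO-8 with WT-5, or KO-3 with WT-5, and the rescaled interaction fits were chosen after seeing the data.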

Additional observations from a re-analysis of the deposited data

Results flagged for a closer look

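Of 54 groups examined (each member within each genotype), 2 held a mouse far from the others of its group, and chance alone flags about 1 in 20 such groups. Atoh1 in KO mice was flagged because KO-8, at 3.40 TPM, was separated from the next KO mouse by 0.737 of the group's range, above the critical value of 0.71. Spdef in WT mice was flagged because WT-7, at 15.7 TPM, was separated from the next WT mouse by 0.646 of the range, above the critical value of 0.625.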

How the results depend on the processing

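In each of the 4 comparisons (KO against WT, cage, cage A against cages B and C, interaction), 0 of the members tested passed an FDR of 0.05 under every setting that was run (limma, and for KO against WT also the authors' deposited q-values). At an unadjusted p below 0.05, KO against WT called 0 or 1 member, the cage test 2 to 6, the contrast of cage A 2 to 8 and the alternative interaction fits 0 to 4. KO against WT called Slc12a8 in cage A alone, without KO-3 and without KO-3 and WT-5 together, Rep15 in cages B and C alone and Creb3l1 without KO-1, 1 member each. The cage test called 5 without KO-1 or without WT-5 and 6 without KO-8 and WT-5 together. The lowest count for cage A, 2, came without KO-3, and the highest, 8, without KO-8 and WT-5 together. The share over all genes is not given for most of these settings, so their counts are not set against a background. That share changed with the mice used. For KO against WT it was 3.10% with all mice and 7.22% without KO-8 and WT-5. For cage A it was 17.4% with all mice and 9.58% without KO-8 and WT-5. The median log2 difference of the members in KO against WT lay between -0.05 and 0.11 over all settings. Leaving out 1 mouse moved it between -0.05 and 0.07. Only Creb3l1 and Pdia5 kept their sign in KO against WT under every setting, and 25 members changed sign in at least 1. Retnlb, Itln1 and Slc12a8 fell below the alternative filter of 5 TPM in at least 5 mice and have no value in that setting. For Atoh1, the log2 difference of cage A ranged from -2.40 to -0.06. No paired analysis was possible because KO and WT mice share no mouse numbers. TPM keep no depth, so the precision of genes below 1 TPM in some mice (Retnlb, Ang4, Itln1, Slc12a8) is unknown apart from the spread between mice. The only KO mouse of cage C leaves the interaction there without a replicate.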
